A study of Homo sapiens with 19 samples.

Results

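The mRNAs of 31 proteasome subunits were followed through fractions of K562 cells, a human leukaemia line of erythroid character. The members were the listed PSMA, PSMB, PSMC and PSMD genes, found by symbol among the 58051 human genes of the exon and gene-body count tables, and all 31 passed the filter on low counts. They comprise 7 genes of the alpha ring, 7 of the beta ring, 6 ATPases of the base, 3 other base subunits and 8 lid subunits, and lie on 13 chromosomes. Untreated cells of 1 line were sequenced as 5 groups. Undepleted nuclear wash had 3 libraries, and nuclear wash, nucleus, cytoplasm and whole cell had 4 libraries each after rRNA depletion. Every group carried added yeast RNA spike-ins, and since no label ties the replicates to cultures of their own, the spread behind each p-value may be technical. The labels do not describe how the wash was taken either, so it is named here only as they name it.

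The proteasome is the main protease of the cytosol and nucleus for proteins tagged with ubiquitin. Its core particle is a barrel in which rings of alpha subunits gate the entry and rings of beta subunits hold the proteolytic sites. A regulatory particle sits on the barrel: a base with a ring of ATPases unfolds the substrate, and a lid removes the ubiquitin chain. The subunits are made from separate genes in fixed proportions, and the transcription factor NFE2L1 is known for raising their mRNAs together when proteasome activity falls. Their mRNAs are translated on cytosolic ribosomes, and they carry introns that are removed in the nucleus.

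The rRNA-depleted libraries held 1373755 to 7955415 exon counts and the undepleted ones 923464 to 1801293. The markers of K562 were summed and scaled to the total exon counts of each library alone. They reached 2620 to 3680 CPM in the nuclear wash, 1850 to 2020 in the nucleus, 3190 to 4580 in the cytoplasm and 2790 to 3360 in whole cells. On the same scale, the 10 markers of other cell types summed to 175 to 212 CPM in the wash and 74.5 to 93.6 in the nucleus. They summed to 63.1 to 86.4 in the cytoplasm and 78.1 to 86.9 in whole cells. All other CPM are counts scaled to library size with TMM factors, which assume that most genes do not change. Of these, the B-cell marker MS4A1 and the basal epithelial marker KRT5 had at most 2 counts in any library. In the wash, the epithelial marker EPCAM had 490 to 928 counts, the myeloid marker LYZ at least 76 and the fibroblast marker COL1A2 69 to 223. Of the 10, 5 passed the filter, and with TMM scaling 5 of 5 were higher in the wash than in the cytoplasm, where 22.8% of all tested genes were. Scaled to the spike-ins, the same 5 were lower, with log2 fold changes of -2.51 to -0.58. The part of these markers in the wash results was not tested. MALAT1, a nuclear RNA, averaged 11770 ± 8270 CPM in the wash, 59700 ± 9930 in the nucleus, 3164 ± 413 in the cytoplasm and 22060 ± 1700 in whole cells (SD, n = 4 each). HSPA5, which encodes a chaperone of the endoplasmic reticulum, averaged 1312 ± 210 CPM in the wash, 441.6 ± 85.6 in the nucleus, 317 ± 63.8 in the cytoplasm and 416.6 ± 38.6 in whole cells.

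Among the members, 3 genes of the alpha ring stood apart in annotation as well as in values, so their sequences are shown first. PSMA1, PSMA2 and PSMA6 each share their strand with an annotated protein-coding locus, AC018523.2, AC010132.3 and AL121594.1, whose transcripts contain 91.3%, 100% and 90% of the member's coding sequence, taking shared runs of at least 25 bases. A read from such a run cannot be assigned to a single one of the loci by its sequence. No other member overlapped a protein-coding locus on its own strand. One shared run of 90 bases is given for each, written 5′ to 3′ along the mRNA from GENCODE release 29 on GRCh38. No base is in capitals because every base is shared. For PSMA1 and PSMA2 the run starts at the start codon, and for PSMA6 it lies inside the coding sequence.
PSMA1: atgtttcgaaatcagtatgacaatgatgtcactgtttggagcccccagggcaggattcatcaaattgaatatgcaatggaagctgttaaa
PSMA2: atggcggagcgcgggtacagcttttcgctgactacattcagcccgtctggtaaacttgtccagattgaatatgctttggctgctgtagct
PSMA6: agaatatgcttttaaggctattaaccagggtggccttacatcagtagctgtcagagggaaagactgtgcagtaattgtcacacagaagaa

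The overlapping loci themselves held at most 1 exon count in any library. PSMA2 and PSMA6 held 0 gene-body counts in all 19 libraries although their exon counts reached 72 and 139. How reads shared between genes were counted is not given in the sources used here, and its part in the values of these 3 members was not tested. The counts of called members are therefore given with and without them.

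Proteasome subunit mRNAs took a smaller share of the RNA in the nucleus than in the cytoplasm. In exon counts, 28 of the 31 members were lower in the nucleus than in the cytoplasm, 2 were higher (PSMA1 and PSMA2) and PSMA6 was not called (edgeR quasi-likelihood test, Benjamini-Hochberg adjusted p under 0.05 over 15940 genes). Over all tested genes, 37.5% were called lower, 39.3% higher and 76.8% in either direction. The median log2 fold change was -1.74 for the members, against 0.03 for all tested genes and -0.28 for the 11310 protein-coding ones. Without the 3 genes with a same-strand coding overlap, 28 of 28 were lower and the median was -1.88. The libraries of nucleus and cytoplasm did not overlap for 30 members, 28 of them lower in the nucleus and 2 higher, while over all tested genes this held for 35.2% lower and 36.3% higher. The libraries are bulk samples scaled to their own totals, so less of an mRNA in a fraction and more of other RNA there cannot be told apart. Summed over the members, exon counts made up 0.240 ± 0.00675% of all exon counts outside mitochondrial and rRNA genes in the nucleus and 0.552 ± 0.0155% in the cytoplasm, against 0.438 ± 0.0294% in the nuclear wash and 0.437 ± 0.0304% in whole cells (SD, n = 4 each). Leaving the 3 genes out, these shares were 0.226% in the nucleus, 0.546% in the cytoplasm, 0.432% in the wash and 0.429% in whole cells.

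**Figure D1:**
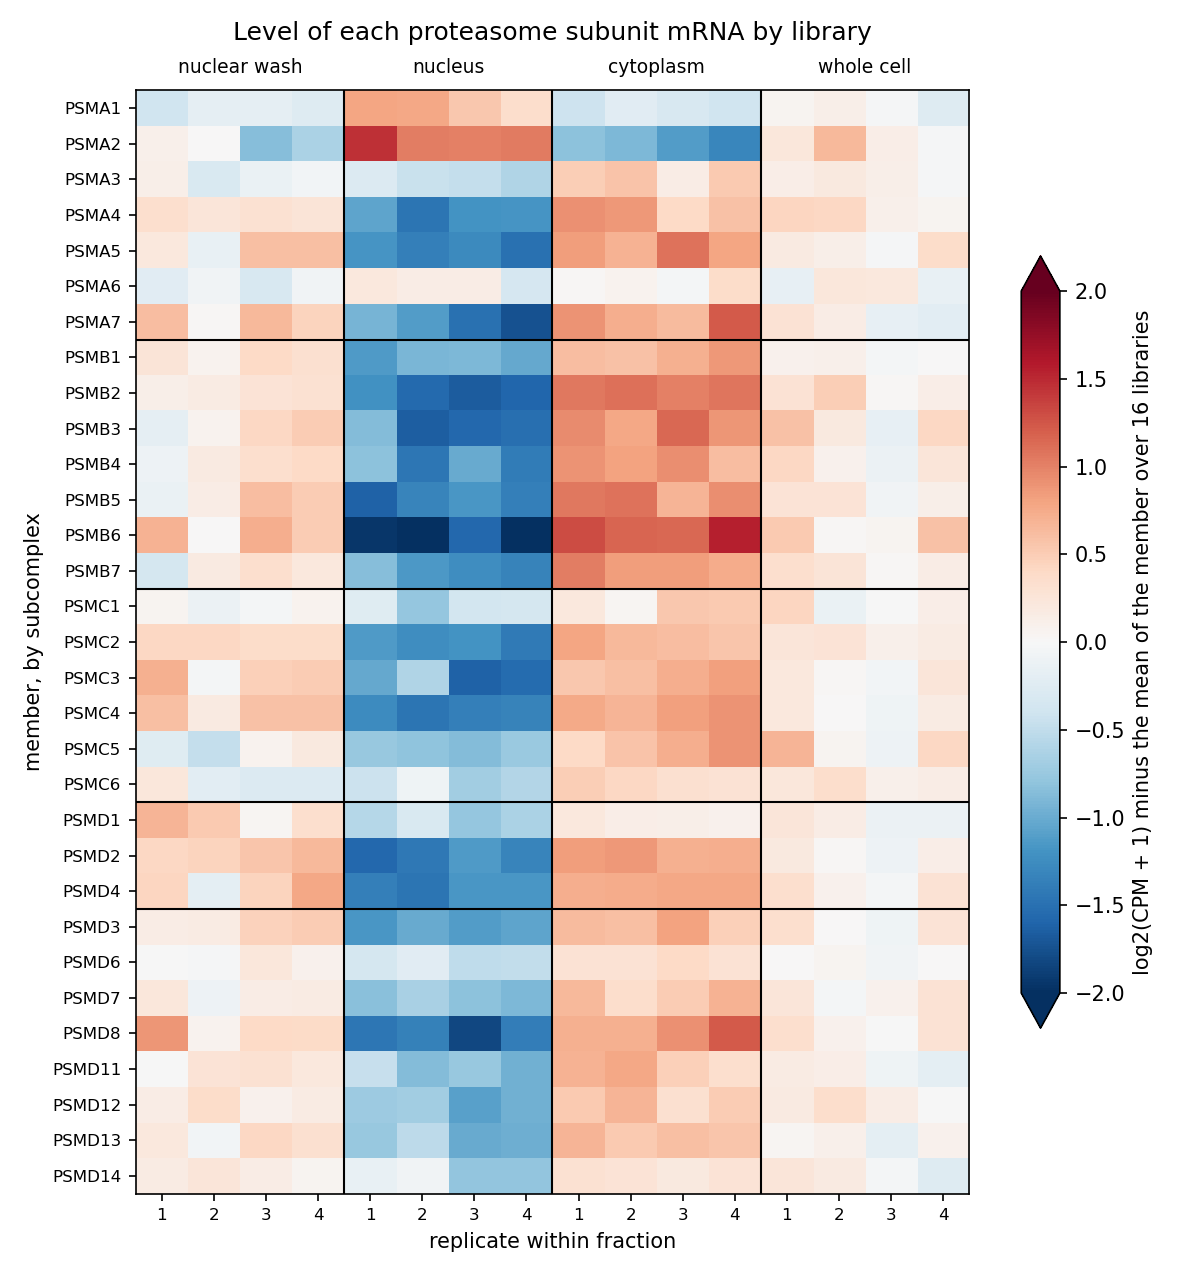
Each cell gives log2(CPM + 1) of a member in a library minus that member's mean over the 16 rRNA-depleted libraries, with TMM scaling, with columns for the 4 replicates of nuclear wash, nucleus, cytoplasm and whole cell and rows by subcomplex. The nuclear libraries are below the mean in 28 rows, where the cytoplasmic ones are above them, and PSMA1 and PSMA2 run the other way.

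The beta ring, which carries the proteolytic sites, had all 7 mRNAs lower in the nucleus, with a median log2 fold change of -2.36. PSMB6, which encodes the subunit with the caspase-like site and lies on chr17:4796144-4798503 (GRCh38, plus strand), had the lowest fold change of all members. It had 2.69, 1.375, 3.807 and 2.075 CPM in the nucleus and 34.31, 30.79, 30.74 and 40.75 CPM in the cytoplasm. Every nuclear library was below every cytoplasmic one, with 4 to 14 counts behind each nuclear value and 173 to 261 behind each cytoplasmic value. The log2 fold change was -3.71 ± 0.27 (SE; edgeR adjusted p = 7.81e-11). PSMB1, a beta subunit without a proteolytic site on chr6:170535117-170553341 (minus strand), had the smallest change of the ring. It had 56.48, 66.32, 66.9 and 61.22 CPM in the nucleus and 192, 188.5, 206.2 and 229.4 CPM in the cytoplasm, again without overlap. The log2 fold change was -1.70 ± 0.11 (edgeR adjusted p = 2.72e-11). PSMB5 and PSMB7, which encode the chymotrypsin-like and trypsin-like sites, had log2 fold changes of -2.36 ± 0.18 and -2.06 ± 0.15.

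The ATPases of the base, which form the ring that unfolds substrates, were lower in the nucleus in 6 of 6 cases, with a median log2 fold change of -1.66. PSMC4 (chr19:39971005-39981441, plus strand) had 32.28, 27.84, 29.92 and 30.61 CPM in the nucleus and 133.5, 126.2, 139.9 and 147.9 CPM in the cytoplasm. The fractions were far apart and the replicates close together, and the log2 fold change was -2.18 ± 0.13 (edgeR adjusted p = 3.36e-12). PSMC1 (chr14:90256495-90275429, plus strand) differed least. It had 27.35, 18.56, 25.02 and 25.42 CPM in the nucleus and 37.88, 33.66, 47.8 and 47.31 CPM in the cytoplasm, which do not overlap but lie close. Its log2 fold change was -0.80 ± 0.16 (edgeR adjusted p = 1.07e-04). PSMC1 shares 4671 exon bases with NRDE2 on the other strand, and since the strand setting of the counting is not given in the sources used here, reads of the 2 genes may not be told apart.

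The other base subunits, PSMD1 and PSMD2, which are scaffolds, and PSMD4, a receptor for ubiquitin chains, were lower in the nucleus in 3 of 3 cases, with a median of -2.06. PSMD2 (chr3:184298709-184309054, plus strand) had 64.55, 71.82, 87.57 and 77.31 CPM in the nucleus and 345.5, 355.8, 317.4 and 322.4 CPM in the cytoplasm. The nuclear libraries were all far lower, with a log2 fold change of -2.15 ± 0.12 (edgeR adjusted p = 1.54e-12). PSMD1 (chr2:231056864-231172827, plus strand), a gene with a span of 115964 bases, had 146.1, 176, 127.5 and 140.1 CPM in the nucleus and 250.9, 239.2, 237.5 and 231.7 CPM in the cytoplasm. Its change was -0.70 ± 0.14 (edgeR adjusted p = 1.02e-04), and the fractions still did not overlap.

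The lid, which holds the deubiquitinase, was lower in the nucleus in 8 of 8 cases, with a median of -1.37. PSMD8 (chr19:38374536-38383824, plus strand), a lid subunit, had 21.97, 23.37, 16.59 and 22.83 CPM in the nucleus and 101, 101, 116 and 144.9 CPM in the cytoplasm. The fractions did not overlap, and the log2 fold change was -2.46 ± 0.18 (edgeR adjusted p = 1.06e-10). PSMD14 (chr2:161308038-161411717, plus strand), the deubiquitinase itself, had 130.9, 138.1, 83.76 and 83.53 CPM in the nucleus and 178.9, 175.6, 166.5 and 176 CPM in the cytoplasm. The nuclear values of replicates 1 and 2 were above those of replicates 3 and 4, and all 4 were below the cytoplasm. Its log2 fold change was -0.68 ± 0.15 (edgeR adjusted p = 4.29e-04). The other lid mRNAs had log2 fold changes between -1.74 (PSMD3) and -0.72 (PSMD6).

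In exon counts the alpha ring was the only one of these subcomplexes with members called higher in the nucleus. PSMA3, PSMA4, PSMA5 and PSMA7 were lower there, with log2 fold changes of -0.89, -1.93, -2.20 and -2.19. PSMA5 (chr1:109399031-109426427, minus strand) had 50.66, 44.33, 47.05 and 40.47 CPM in the nucleus and 205.9, 187.5, 245.3 and 201.1 CPM in the cytoplasm (edgeR adjusted p = 9.29e-11). The 3 members whose coding sequence is shared with another locus, printed above, had other values. PSMA2 (chr7:42916857-42932223, minus strand) had 26, 18.9, 18.77 and 19.2 CPM in the nucleus and 4.562, 4.297, 3.53 and 2.967 CPM in the cytoplasm, a log2 fold change of 2.42 ± 0.24 (edgeR adjusted p = 1.38e-08). PSMA1 (chr11:14504874-14643635, minus strand) had 63.21, 62.89, 53.3 and 46.7 CPM in the nucleus and 26.97, 30.94, 28.83 and 27.17 CPM in the cytoplasm, a log2 fold change of 0.99 ± 0.13 (edgeR adjusted p = 3.97e-07). Both were higher in every nuclear library than in any cytoplasmic one. PSMA6 (chr14:35278633-35317493, plus strand) had 19.28, 18.56, 18.49 and 12.97 CPM in the nucleus and 16.86, 17.47, 16.03 and 21.7 CPM in the cytoplasm. These ranges overlapped, and the log2 fold change was -0.04 ± 0.16 (edgeR adjusted p = 0.818).

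The same 3 genes also had the lowest cytoplasmic CPM of the 31. PSMA1, PSMA2 and PSMA6 averaged 28.48, 3.839 and 18.02 CPM in the cytoplasm, while the other 4 alpha-ring mRNAs averaged 128.6 to 371.7 CPM. Per kilobase of annotated exon, cytoplasmic levels ran from 0.719 CPM for PSMA2 to 167 CPM for PSMA7, with a median of 39.4 CPM over the 31 members. In the nucleus the highest member was again PSMA7 with 36.6 CPM per kilobase, and the lowest was PSMB6 with 1.72.

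**Figure D2:**
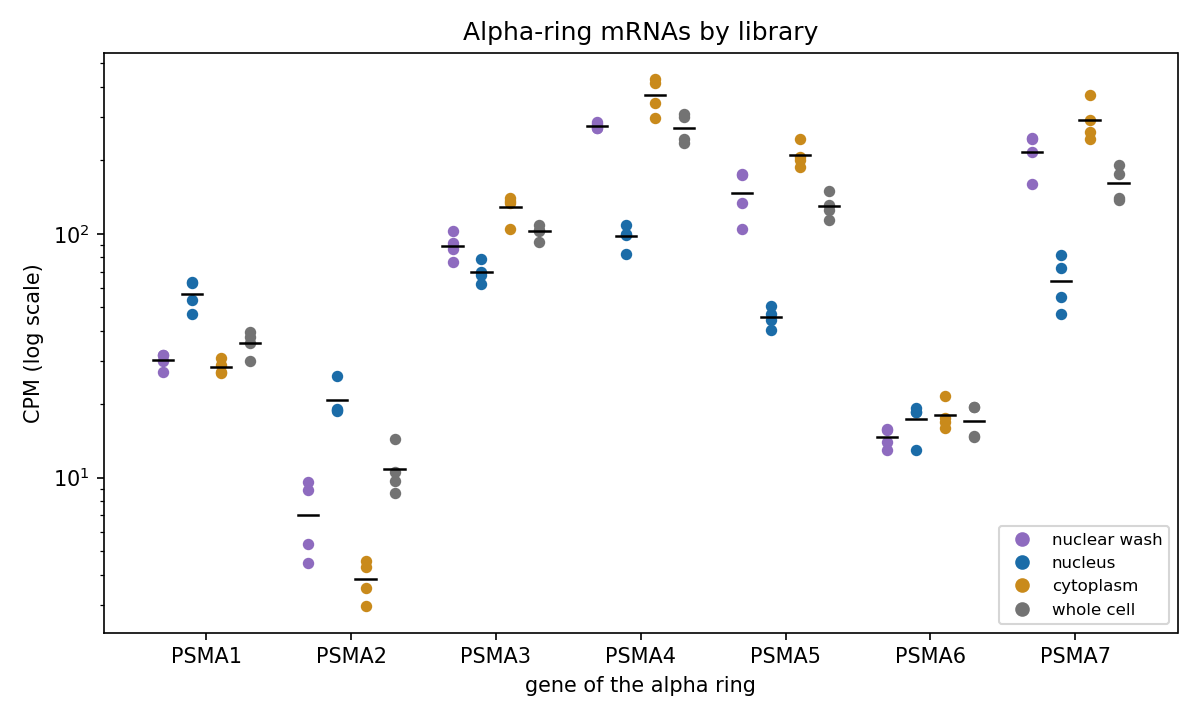
Points give the CPM of each alpha-ring mRNA in each library on a log scale, and short bars give the mean of 4 libraries, for nuclear wash, nucleus, cytoplasm and whole cell. PSMA3, PSMA4, PSMA5 and PSMA7 are lowest in the nucleus, whereas PSMA1 and PSMA2 are highest there and PSMA6 differs little between fractions.

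The nuclear fold change varied among members along with their annotated exon length. Across the 31 genes, annotated exon length and the log2 fold change of nucleus against cytoplasm had a Spearman's rho of 0.59 and a Pearson's r of 0.43. Over the 28 genes without a same-strand coding overlap these were 0.62 and 0.63. The points share the same libraries, and exon length is the union of all annotated transcripts, so this is a description. PSMB6 has 1448 annotated exon bases, while PSMD14 has 7698 and PSMC6 has 7482. The span of the gene had a rho of 0.45 over the 31 genes, and the cytoplasmic CPM had one of -0.16, or 0.14 over the 28.

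With other scalings the fold changes of all genes moved together. The median of all tested genes shifted to 0.64 with library totals alone and to -0.60 with library sizes from the spike-ins, and the median of the members moved to -1.12 and -2.37. The difference between both medians was -1.77 as reported, -1.76 with library totals alone and -1.77 with the spike-ins. Such a shift moves all genes by about the same amount, so this difference could hardly change with the scaling. Read without that shift, library totals left 23 members lower and 3 higher, and ended the calls of PSMC1, PSMC6, PSMD1, PSMD6 and PSMD14, while the spike-ins left 29 lower and 1 higher, with PSMA1 at 0.35 and not called. Over all tested genes, 51.2% of the calls were higher as reported, 69.5% with library totals alone and 34.7% with the spike-ins. Within replicates 1 and 2 and within replicates 3 and 4, which carry different column-name prefixes, 28 members were lower in each. Of all tested genes, 35.6% and 34.7% were lower there.

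The intronic share of the same genes was higher in the nucleus than in the cytoplasm. Intronic counts were taken as gene-body minus exon counts. Of the gene-body counts summed over the members, they made up 71.4 ± 3.74% in nuclear libraries and 6.58 ± 1.51% in cytoplasmic libraries, against 15.9 ± 5.35% in the nuclear wash and 33.0 ± 5.11% in whole cells (SD, n = 4 each). Leaving out the 3 genes, PSMA1 with its mean intronic share of 78.4% in the cytoplasm among them, they made up 67.8 ± 3.06%, 4.66 ± 1.31%, 14.2 ± 4.43% and 28.1 ± 4.74% in the same order of fractions. Over all genes outside mitochondrial and rRNA genes, the intronic share was 72.7 ± 2.12%, 16.5 ± 1.36%, 27.9 ± 3.24% and 50.3 ± 3.64% in that order. The ratio of intronic to exonic counts could be tested for 27 members, the others having fewer than 10 intronic counts in all. It was higher in the nucleus than in the cytoplasm for 27 of 27 (edgeR quasi-likelihood test of the interaction of count type and fraction, adjusted over 15335 genes), with a median log2 change of 5.28. Over all tested genes 73.4% were higher, 2.53% lower and 75.9% called in either direction, with a median of 3.36. Over protein-coding ones 84.9% were higher and 1.18% lower, with a median of 3.87. Without the members that share coding sequence with another locus, the count of members was 26 of 26. PSMA3 stayed among these. It had 0% intronic counts in every cytoplasmic library, where its lowest gene-body count, 622, was below its lowest exon count, 673. Its log2 change of 12.64 rests on these 0 values. So do its changes of 7.09 for the wash against the cytoplasm and -9.56 for the cytoplasm against whole cells.

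The members differed widely in how much of their nuclear signal was intronic. PSMB7, whose gene on chr9:124353466-124415444 (minus strand) spans 61979 bases with 1787 exonic, had 93.7, 94.8, 92.7 and 92.9% intronic counts in the nucleus and 25.6, 25.2, 19 and 17.2% in the cytoplasm. PSMD14 had 90.4, 90, 89.8 and 89.5% in the nucleus and 27.3, 27, 18.1 and 18.3% in the cytoplasm. In both genes the nuclear libraries were close together, and the cytoplasmic values of replicates 1 and 2 exceeded those of replicates 3 and 4. At the other end, PSMB4 and PSMC5 had 0.532% and 0.482% intronic counts in the nucleus on average, where annotated exons cover 89.5% and 92.1% of the locus. PSMB6 had 0 to 5 intronic counts in each nuclear library and 0 or 1 in each cytoplasmic one, so its ratio rests on few reads. When reads were counted over whole gene bodies, PSMB7 had a log2 fold change of nucleus against cytoplasm of 0.07 (edgeR adjusted p = 0.698) and PSMD14 one of 0.77 (edgeR adjusted p = 9.67e-04), against -2.06 and -0.68 in exon counts. Over gene bodies 26 members were lower and 2 higher, of the 29 that had counts there, where 40.8% of all 17015 genes tested were lower and 41.1% higher.

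**Figure D3:**
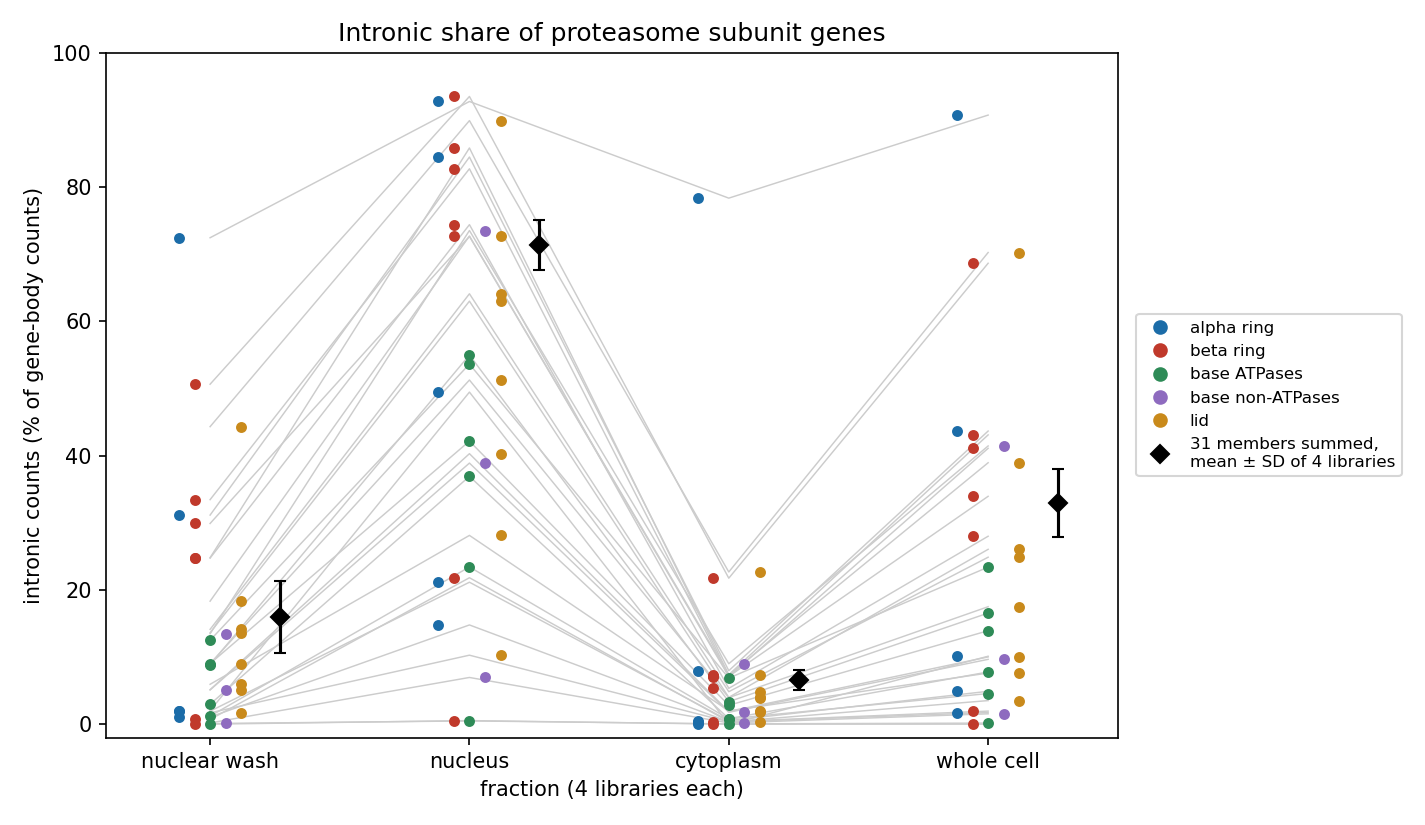
Points give the intronic share of gene-body counts of each member, as the mean of 4 libraries, in nuclear wash, nucleus, cytoplasm and whole cell, without PSMA2 and PSMA6, which have 0 gene-body counts. Grey lines join a member across fractions, and black diamonds give the 31 members summed, 15.9%, 71.4%, 6.58% and 33.0%, with the SD of 4 libraries. PSMA1 is the line at the top in the wash, the cytoplasm and whole cells.

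Relative to the median of all tested genes, the members were lower in the nuclear wash than in the cytoplasm by less than in the nucleus. The differences were -0.43 for the wash and -1.77 for the nucleus (-0.47 and -1.77 with the spike-ins, since scaling hardly changes them). Against the cytoplasm, 20 members were lower in the wash, 1 was higher (PSMA2) and 10 were not called (edgeR, adjusted p under 0.05), where 21.4% of all tested genes were lower, 22.8% higher and 44.2% called in either direction. The median log2 fold change was -0.38 for the members and 0.05 for all tested genes (-3.57 and -3.10 with the spike-ins, under which 31 members and 93.3% of all tested genes were lower). Without the 3 genes with a same-strand coding overlap, 20 of 28 were lower. The libraries of the fractions did not overlap for 20 members, all lower in the wash, while over all tested genes this held for 19.4% lower and 18.8% higher. The calls were closer to the threshold here. Within replicates 1 and 2, 19 members were lower, and within replicates 3 and 4, 14 were, where 20.3% and 19% of all tested genes were. A fit of the 2 fractions alone gave 13, no filter on low counts gave 10, and the fit with the replicate number as a block gave 25 lower and 2 higher. Over all tested genes these fits gave 21.3%, 7.26% and 25.1% lower, and the block gave 25.8% higher.

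The beta ring again had 7 of 7 members lower in the wash, with a median of -0.72 and no overlap between fractions for any of the 7. PSMB2 (chr1:35599544-35641844, minus strand), a beta subunit without a proteolytic site, had 94.18, 97.28, 104.9 and 107 CPM in the wash and 181.1, 186.1, 174.1 and 182.1 CPM in the cytoplasm, a log2 fold change of -0.84 ± 0.12 (edgeR adjusted p = 8.66e-06). All wash libraries were lower. PSMB6 had the same fold change, with 22.07, 13.39, 22.47 and 19.23 CPM in the wash (edgeR adjusted p = 0.00105). The alpha ring had 4 lower and 1 higher of 7, the ATPases 4 lower of 6 and the lid 5 lower of 8. PSMC5, an ATPase whose gene shares 874 exon bases with FTSJ3 on the other strand, had a log2 fold change of -0.76 ± 0.17.

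None of the other base subunits passed the edgeR test in the wash, and PSMD2 and PSMD4 had an unadjusted p under 0.05. PSMD1 had 351, 312.2, 223.1 and 276.1 CPM in the wash and 250.9, 239.2, 237.5 and 231.7 CPM in the cytoplasm, a log2 fold change of 0.28 ± 0.14 (edgeR adjusted p = 0.105). One wash library was below the lowest cytoplasmic ones and the other 3 were above all of them. With the replicate block, PSMD1 was called higher with 0.26 (edgeR adjusted p = 0.0467), and PSMC1, PSMD2, PSMD3, PSMD4 and PSMD6 were called lower. PSMD2 and PSMD4 had log2 fold changes of -0.27 ± 0.11 and -0.35 ± 0.15 without it. PSMA2, the member called higher, had 9.566, 8.872, 4.458 and 5.318 CPM in the wash, on 25 to 57 counts, and a log2 fold change of 0.85 ± 0.26 (edgeR adjusted p = 0.0109). Replicate 3 of the wash lay within the cytoplasmic range, and the call was lost without replicate 2 of the wash (0.66, edgeR adjusted p = 0.0673).

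**Figure D4:**
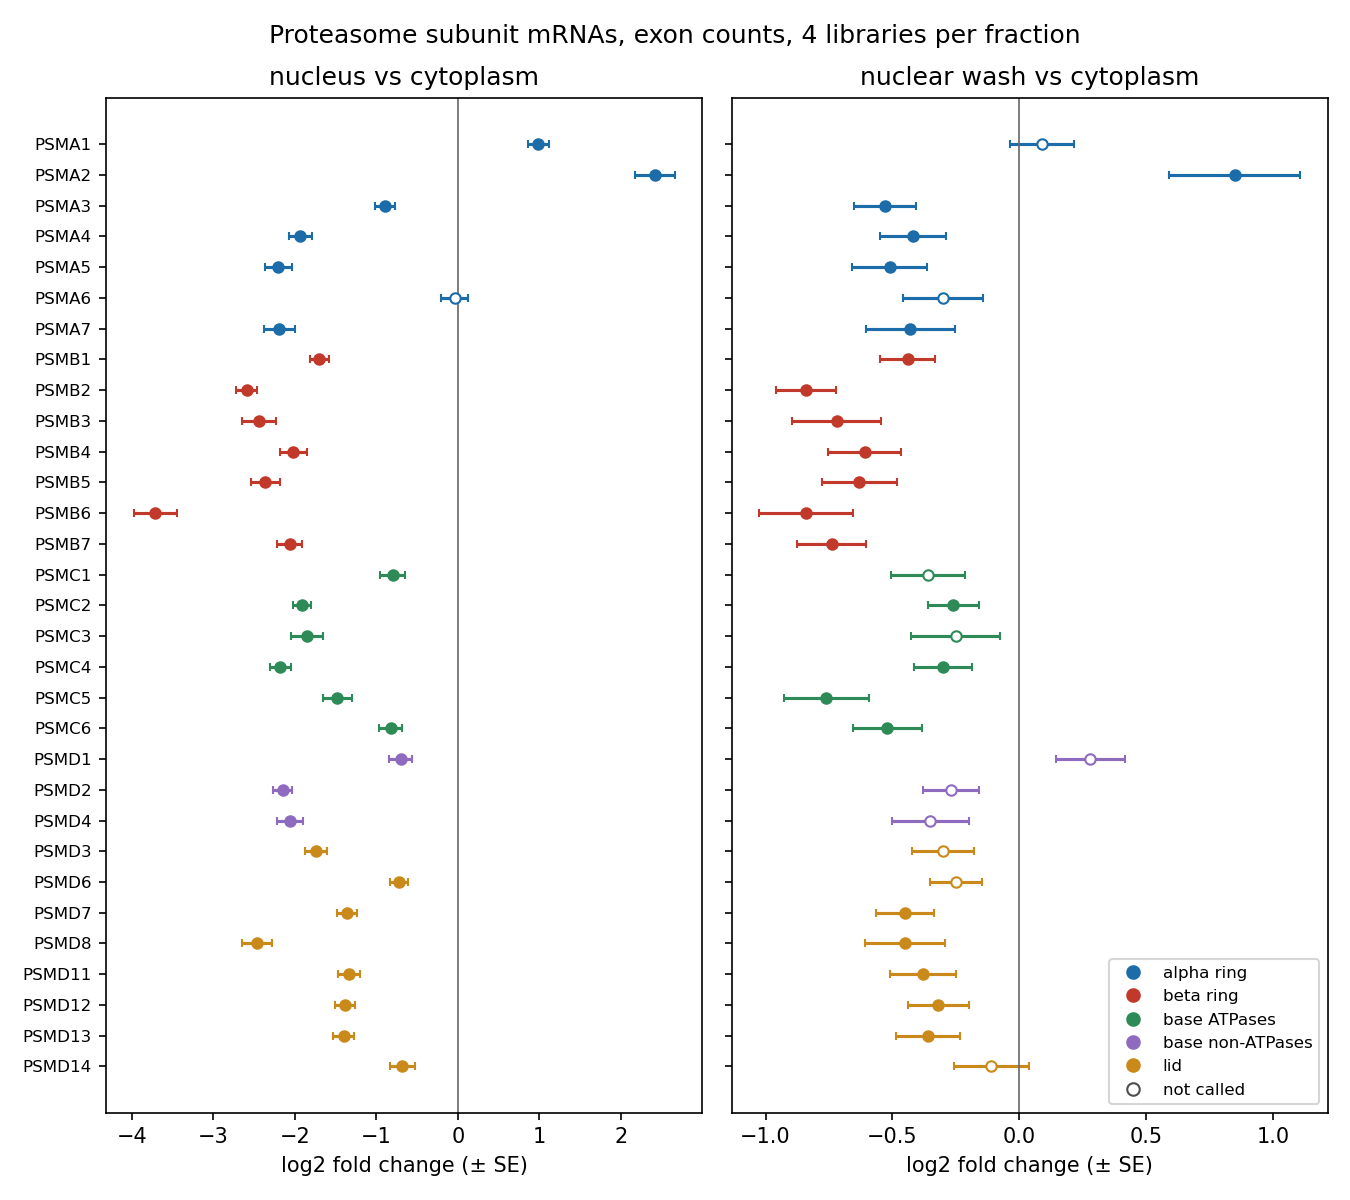
Points give log2 fold changes of exon counts with their SE (4 libraries per fraction) for nucleus against cytoplasm on the left and nuclear wash against cytoplasm on the right, with different scales, for members by subcomplex. Filled points passed an adjusted p of 0.05 and open points did not. All 7 beta-ring members lie left of 0 in both panels. The panels share the cytoplasmic libraries.

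In the intronic ratio the wash stood between both fractions. The ratio was higher in the wash than in the cytoplasm for 23 of 27 members and not called for PSMA1, PSMB6, PSMC3 and PSMD2, where 50.9% of all tested genes were higher, 1.75% lower and 52.6% called in either direction, and the median log2 change was 1.66. It was lower in the wash than in the nucleus for 27 of 27, where 66.9% of all tested genes were lower, 1.79% higher and 68.7% called in either direction. Without the 3 genes with a same-strand coding overlap, it was higher in the wash than in the cytoplasm for 23 of 26 and lower than in the nucleus for 26 of 26. PSMA5 had 39.6, 45.3, 20 and 19.7% intronic counts in the wash, 86.1, 88.4, 80.6 and 82.9% in the nucleus and 10.6, 10.4, 3.86 and 7% in the cytoplasm. The wash values of replicates 1 and 2 lay within the range of whole cells, which had 45.1, 50.6, 44.2 and 34.8%, and those of replicates 3 and 4 lay below it.

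Set against the nucleus, exon counts of 27 members were higher in the nuclear wash, 2 were lower (PSMA1 and PSMA2) and PSMA6 and PSMC6 were not called (edgeR, adjusted p under 0.05). Over all tested genes 36.7% were higher, 35.4% lower and 72.1% called in either direction. The median log2 fold change was 1.31 for the members, against 0.06 for all tested genes, and without the 3 genes with a same-strand coding overlap 27 of 28 were higher. The beta ring, the other base subunits and the lid were higher throughout, in 7 of 7, 3 of 3 and 8 of 8 cases, with TMM scaling. The libraries did not overlap for 28 members, 26 higher and 2 lower, while over all tested genes this held for 31.7% higher and 30.6% lower. Within replicates 1 and 2, 23 members were higher, and within replicates 3 and 4, 27 were, where 31.8% and 34% of all tested genes were. PSMB6 had the highest fold change, 2.87 ± 0.28 (edgeR adjusted p = 1.75e-08), from the values given above. PSMA2 had the lowest, -1.58 ± 0.24 (edgeR adjusted p = 5.73e-06), and PSMA1 had 27.23, 31.91, 31.74 and 30.07 CPM in the wash and a log2 fold change of -0.90 ± 0.13. With library sizes from the spike-ins, 0 members were higher and 30 lower, where 93.5% of all tested genes were lower and 0.119% higher, and the median of the members was -1.23 where that of all genes was -2.47. The difference between both medians, which scaling hardly changes, was 1.24 there and 1.25 as reported.

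The last comparison of fractions set the cytoplasm against whole cells, which hold all compartments. Exon counts of 23 members were higher in the cytoplasm, 2 were lower (PSMA1 and PSMA2) and 6 were not called (edgeR, adjusted p under 0.05), where 22.3% of all tested genes were higher, 27.6% lower and 50% called in either direction. The median log2 fold change was 0.57 for the members and 0.00 for all tested genes, and 23 of 28 were higher without the 3 genes with a same-strand coding overlap. The beta ring was higher in 7 of 7 cases and the lid in 7 of 8, with TMM scaling. The libraries did not overlap for 21 members, 20 higher and 1 lower, while over all tested genes this held for 20.3% higher and 24.5% lower. Within replicates 1 and 2, 16 members were higher, and within replicates 3 and 4, 25 were, where 16.6% and 20.2% of all tested genes were. PSMB6 had the highest fold change, with 34.31, 30.79, 30.74 and 40.75 CPM in the cytoplasm and 19.59, 13.56, 13.78 and 20.47 CPM in whole cells, a log2 fold change of 1.04 ± 0.19 (edgeR adjusted p = 1.57e-04), which was -0.22 with the spike-ins. PSMA2 had the lowest, with 4.562, 4.297, 3.53 and 2.967 CPM in the cytoplasm and 10.55, 14.36, 9.71 and 8.644 CPM in whole cells, a log2 fold change of -1.50 ± 0.25 (edgeR adjusted p = 5.73e-05). PSMA1 had a log2 fold change of -0.32 ± 0.12 (edgeR adjusted p = 0.0361), and this call was lost without replicate 1, 3 or 4 of the cytoplasm or replicate 1 or 2 of the whole cell, with values of -0.32 to -0.25.

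The counts of this comparison moved with the scaling. With library totals alone 13 members were higher, where 8.78% of all tested genes were. With the spike-ins 0 members were higher and 30 lower, where 92.2% of all tested genes were lower and 0% higher, with a median of -0.68 where that of all genes was -1.24. The difference between both medians, which scaling hardly changes, was 0.57 as reported, 0.58 with library totals and 0.56 with the spike-ins. The ratio of intronic to exonic counts, which is taken within each library, was lower in the cytoplasm than in whole cells for 26 of 27 members, where 67.6% of all tested genes were lower, 1.7% higher and 69.3% called in either direction, with a median log2 change of -2.82. PSMB6 was the exception, on few intronic counts, with -2.43 (edgeR adjusted p = 0.0553), and was called with the replicate block (-2.48, edgeR adjusted p = 0.0248). Without the 3 genes with a same-strand coding overlap, 25 of 26 were lower.

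In the fit without a replicate block, few members, and few of all tested genes, passed the test between the washes without and with rRNA depletion. Against the depleted wash, 3 members were higher in the undepleted wash (PSMC5, PSMD3 and PSMD8), 1 was lower (PSMD12) and 27 were not called (edgeR, adjusted p under 0.05 over 11627 genes). Over all tested genes 7.75% were higher, 3.35% lower and 11.1% called in either direction. The libraries did not overlap for 10 members, 6 higher and 4 lower, while over all tested genes this held for 14.2% higher and 13.1% lower. The median log2 fold change was 0.06 for the members and -0.04 for all tested genes. Without the 3 genes with a same-strand coding overlap, 3 of 28 were higher and 1 was lower. PSMD8 had 130.4, 149.3 and 136.3 CPM in the undepleted wash and 84.63, 46.08, 57.53 and 57.91 CPM in the depleted wash, scaled within these 7 libraries. No undepleted library fell below a depleted one, and the log2 fold change was 1.18 ± 0.20 (edgeR adjusted p = 0.00446). PSMD12 (chr17:67337916-67366627, minus strand) had 127, 89.99 and 81.81 CPM in the undepleted wash and 163.8, 184.1, 148.9 and 162.2 CPM in the depleted wash, a log2 fold change of -0.73 ± 0.19 (edgeR adjusted p = 0.0291), and its call was lost in 4 of the 7 fits that left out a library.

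PSMA1 had the lowest fold change of this comparison and was not called, with 15.87, 14.28 and 7.635 CPM in the undepleted wash and 20.14, 22.93, 22.41 and 21.72 CPM in the depleted wash, on 7 to 20 counts in the undepleted libraries. Its log2 fold change was -0.78 ± 0.24 (edgeR adjusted p = 0.0601). With the column-name prefix as a replicate block, 9 members were higher and 4 lower, where 16.7% of all tested genes were higher and 15.8% lower. With library totals alone 1 was higher and 11 lower, where 3.45% of all tested genes were higher and 30.9% lower, with medians of -0.44 for the members and -0.56 for all tested genes. Without replicate 2 or replicate 3 of the undepleted wash, 1 member was higher, where 3.03% and 3.04% of all tested genes were. The members' intronic share was 10.4 ± 4.11% in the undepleted wash (SD, n = 3) and 15.9 ± 5.35% in the depleted wash (SD, n = 4). Over all genes outside mitochondrial and rRNA genes it was 23.1 ± 2.79% and 27.9 ± 3.24%. By library, the members had 15.1, 8.82 and 7.33% in the undepleted wash and 18.1, 22.5, 11.8 and 11.3% in the depleted wash. The undepleted libraries carry the column-name prefixes of depleted replicates 2, 3 and 4, so the 2 means are not matched.

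Other genes of the proteasome pathway, 50 in 7 lists, shared the pattern in part. Of 46 that passed the filter, 33 were lower in the nucleus than in the cytoplasm, 5 were higher and 8 were not called, with a median log2 fold change of -0.87. Over all tested genes 37.5% were lower and 39.3% higher, and over protein-coding ones 45.2% and 29.3%. The counts of the single lists below stand beside these same shares. Among the other subunits, ADRM1, a receptor for ubiquitin chains, had -2.88 ± 0.21, with 8.82 to 14.79 CPM in the nucleus and 71.63 to 102.1 CPM in the cytoplasm. SEM1, a small lid protein, was higher in the nucleus with 0.91 ± 0.14, and PSMB10, a subunit of the immunoproteasome that overlaps a protein-coding locus on its own strand, had 1.06 ± 0.56 and was not called. PSMB8, PSMB9, PSMA8 and PSMB11, forms used in immune cells, testis and thymus, did not pass the filter.

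The activators and the inhibitor were lower in 4 of 5 cases, led by PSME3, PSME1 and PSMF1 with log2 fold changes of -2.69, -2.34 and -2. The assembly chaperones were lower in 5 of 9 and higher in 3. POMP, which builds the core particle, had -2.89 and PSMD10 had -2.73, while PSMD9, which overlaps protein-coding loci on its own strand, was higher with 2.49. PSMG4 and PSMD5, the other chaperones called higher, had 1.83 and 0.93. The associated factors were lower in 6 of 7, among them AKIRIN2, TXNL1 and UCHL5 with -1.47, -1.46 and -0.85. Ubiquitin genes were lower in 5 of 6, with UBB at -2.97 and RPS27A at -2.92, although RPS27A has many near-identical copies in the genome and its counts are uncertain. The shuttles and unfoldase were lower in 7 of 9, with RAD23B at -2.31 and UBQLN2 at -1.43, and UFD1 was higher with 1.05.

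The transcriptional regulators were lower in the nucleus in 5 of 7 cases, with NFYC, NFYB and NFE2L2 at -0.87, -0.83 and -0.79. NFE2L1, chosen after its values were seen, encodes the activator of proteasome genes, a protein inserted into the membrane of the endoplasmic reticulum before it is released. With TMM scaling it was the only one of the 7 called higher in the wash than in the cytoplasm, and with the spike-ins it was lower there than in the cytoplasm (-1.10) and the nucleus (-0.95), where the medians of all genes were -3.10 and -2.47. It had 219.5 to 410 CPM in the wash, 69.76 to 141.7 in the nucleus and 56.92 to 97.66 in the cytoplasm. With TMM scaling the wash did not overlap with either fraction, and its log2 fold change was 2.10 ± 0.25 against the cytoplasm (edgeR adjusted p = 1.28e-06) and 1.68 ± 0.25 against the nucleus (edgeR adjusted p = 6.17e-06). None of the 31 subunit mRNAs was called higher in the wash than in both of these fractions with TMM scaling, except PSMD1 with the replicate block.

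The promoters of the members were read for motifs of regulators known to act on proteasome genes. Promoters of 26 of the 31 members were found in RefSeq (GRCh38.p14), as the 250 bases before the start that RefSeq gives. That start can differ from the outermost GENCODE start used for the gene coordinates: the PSMA4 window lies inside the GENCODE gene, and the windows of PSMB3 and PSMD3 run past theirs. The letters TGACNNNGC, the core to which NFE2L1 and its relatives bind, occurred on either strand in 5 of 26 (19.2%) and in 10.9% of all 35116 promoters of that length. The letters CCAAT, bound by the NFY factors, occurred in 12 of 26 (46.2%) and in 32% of all. The motifs do not overlap each other in the promoters printed, and a match is a description. PSMA4, PSMB3 and PSMD3 hold both and are shown with the matches in capitals, in the order PSMA4 on chr15:78540536-78540785, PSMB3 on chr17:38752491-38752740 and PSMD3 on chr17:39980557-39980806, all on the plus strand.
PSMA4: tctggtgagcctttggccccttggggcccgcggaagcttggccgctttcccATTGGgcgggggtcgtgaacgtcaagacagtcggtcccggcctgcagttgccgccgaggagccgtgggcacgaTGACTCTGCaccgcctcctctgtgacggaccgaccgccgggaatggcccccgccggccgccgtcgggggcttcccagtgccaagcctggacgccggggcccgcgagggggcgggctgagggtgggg
PSMB3: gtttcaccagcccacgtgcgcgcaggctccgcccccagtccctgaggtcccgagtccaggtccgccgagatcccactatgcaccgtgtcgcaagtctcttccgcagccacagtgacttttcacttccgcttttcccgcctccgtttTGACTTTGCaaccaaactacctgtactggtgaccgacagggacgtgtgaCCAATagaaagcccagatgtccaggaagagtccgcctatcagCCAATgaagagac
PSMD3: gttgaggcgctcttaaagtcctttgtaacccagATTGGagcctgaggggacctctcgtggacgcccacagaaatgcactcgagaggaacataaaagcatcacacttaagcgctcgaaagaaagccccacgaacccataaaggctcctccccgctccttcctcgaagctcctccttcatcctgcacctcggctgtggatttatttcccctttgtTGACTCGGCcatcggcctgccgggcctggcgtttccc

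The mRNAs of these 3 genes lay inside the range of the others. PSMA4, PSMB3 and PSMD3 had log2 fold changes of nucleus against cytoplasm of -1.93, -2.44 and -1.74, and of wash against cytoplasm of -0.42, -0.72 and -0.30, within the range of the 28 members without a same-strand coding overlap.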

How the data were processed

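The authors deposited 2 tables of raw read counts per gene, over exons and over whole gene bodies. Tools listed per the submitters' processing notes are featureCounts 1.6.2, STAR 2.7.0a and cutadapt 2.5, with hg38 as build. Not given in the sources used here are annotation, strand setting and treatment of shared reads, so overlapping, antisense and multi-copy genes are uncertain. Per the labels' protocols, libraries were made with a stranded SMARTer kit and yeast spike-ins were added, and their amount per sample is not stated. Symbols came from GENCODE 29, in which 57447 of 58051 identifiers matched, and 0 columns were left unused.

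Exon counts were tested with edgeR 4.0.16 (R 4.3.3), as quasi-likelihood tests after TMM and filterByExpr, the 16 depleted libraries in one fit and the 7 wash libraries in another. P-values were adjusted by Benjamini-Hochberg over all genes tested, and genes were called under 0.05. SE is the absolute log2 fold change over the square root of F. CPM uses TMM factors over the libraries of the fit. The ratio of intronic to exonic counts was tested as an interaction with a term per library, for genes with at least 10 of each. Exon counts exceeded gene-body counts in 47 of 589 pairs of member and library, and intronic counts were set to 0 there. Scripts were tested on simulated data. Same-numbered libraries deviated together, with correlations of 0.104 to 0.379 over 24 pairs, and same-prefix wash libraries with 0.193 to 0.417. The numbers, taken from the labels, and the prefixes were therefore read as pairs in alternative fits with a replicate block. The main tests had no such block and did not use the pairing. DESeq2 1.42.0, other scalings, filters and fits were tried as alternatives, and the subsets of members by overlap and the spike-in scaling of NFE2L1 and the markers were added after seeing the data. Members, lists and tests were chosen with earlier results of these data known. Values per library are given for the members with the highest and lowest nuclear change of each subcomplex, those with the extremes of the other comparisons and those called against the majority. Up to 3 genes per other list are named by the size of that change, some of which are not reported here, and genes called against the rest of a list were added after their values were seen.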

Additional observations from a re-analysis of the deposited data

Results flagged for a closer look

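In 6 of 124 sets of 4 libraries, 1 library lay far from the other 3 for a member, where chance flags about 1 in 20 sets. PSMA2 had 26 CPM in replicate 1 of the nucleus, and 18.77 to 19.2 CPM in the other 3. PSMB3 had 14.35 CPM in replicate 1 of the nucleus, and 7.904 to 8.82 CPM in the others. PSMA6 had 12.97 CPM in replicate 4 of the nucleus, and 18.49 to 19.28 CPM in the others. In the nuclear wash, PSMC4 had 89.5 CPM in replicate 2 and 118.8 to 119.6 CPM in the others, and PSMC6 had 104.9 CPM in replicate 1 and 73.64 to 77.05 CPM in the others. PSMD6 had 150.8 CPM in replicate 3 of the cytoplasm, and 138.6 to 139.6 CPM in the others.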

How the results depend on the processing

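The lower calls in the nucleus against the cytoplasm held for 28 members without any 1 library, where 35.1 to 36.4% of all tested genes were lower. The median of the members stayed between -1.82 and -1.68. The counts without 1 library were 14 to 20 for the wash against the cytoplasm, 26 to 28 against the nucleus, 20 to 25 for the cytoplasm against whole cells, and 1 to 4 for the undepleted wash. Over all tested genes the shares were 18.9 to 20%, 33.6 to 36.1%, 16.6 to 21% and 3.03 to 8.63%. The medians of the members were -0.43 to -0.35, 1.24 to 1.46, 0.49 to 0.60 and 0.00 to 0.12. For the intronic ratio, each fit left out 1 replicate number, and so 1 library of each fraction. The counts were then 26 to 27 for the nucleus and 21 to 23 for the wash against the cytoplasm. They were 26 to 27 for the wash against the nucleus and 26 to 27 for the cytoplasm against whole cells. With all libraries, 73.4%, 50.9%, 66.9% and 67.6% of all tested genes were called in these directions, and shares without a replicate were not taken. Without replicate 2 only 26 members were tested. The nuclear median was -1.60 with RLE factors and with DESeq2, -1.89 without a filter and -2.02 over gene bodies. With library totals alone the medians were -1.12 for the nucleus, 0.64 for the wash against the nucleus, 0.33 for the cytoplasm against whole cells (13 higher) and -0.44 for the undepleted wash (1 higher). With the spike-ins they were -2.37, -3.57 for the wash against the cytoplasm (31 lower), -1.23 against the nucleus (0 higher), -0.68 for the cytoplasm (0 higher) and -0.14 for the undepleted wash (0 higher, all edgeR). The first 2 of these last 3 comparisons had 30 members lower, and in the undepleted wash 2.84% of all tested genes were higher. Without a filter, the wash was lower than the cytoplasm for 10 members (7.26% of all tested genes) and had a median of 1.54 against the nucleus. Gene bodies gave -0.62 for the wash and 1.09 for the cytoplasm against whole cells. The fit of 2 groups gave 13 lower in the wash (21.3% of all tested genes). With the spike-ins 26 of the 27 higher calls of the wash against the nucleus and 22 of the 23 of the cytoplasm against whole cells became lower calls. Among the members followed singly, all 31 against the cytoplasm and in the undepleted wash and 3 in the other comparisons, these changed direction. PSMA6 had 0.57 in the nucleus with library totals. With the spike-ins PSMA1, PSMA2 and PSMD1 had -3.08, -2.28 and -2.87 in the wash against the cytoplasm, and PSMB6 had -0.22 in the cytoplasm against whole cells. NFE2L1 had -1.10 in the wash against the cytoplasm and -0.95 against the nucleus with them. Over gene bodies PSMB7 and PSMD14 had 0.07 and 0.77. Without the members that overlap another annotated gene, 16 of 16 were lower in the nucleus with a median of -2.06, the wash was lower than the cytoplasm for 12 and higher than the nucleus for 15 with a median of 1.64 against the nucleus, and 15 were higher in the cytoplasm than in whole cells. The intronic calls there were 15, 12, 15 and 14. Without the 3 same-strand overlaps the nuclear median was -1.88. These lower counts come with fewer members, and otherwise the cause was not tested. The replicate block gave 9 higher and 4 lower members for the undepleted wash (9 more calls), 6 more calls for the wash against the cytoplasm, and 1 more call each for the wash against the nucleus (28, with PSMC6), the cytoplasm against whole cells (24, with PSMC5) and the intronic ratio there (27, with PSMB6). It changed no other call of the members in exon counts. Over all tested genes the block called 16.7% higher and 15.8% lower in the undepleted wash. It called 38.3% higher in the wash than in the nucleus and 26.9% higher in the cytoplasm than in whole cells. Counts set the limit for PSMB6, with 4 to 14 counts in the nucleus, and for PSMA2, with 19 to 30 in the cytoplasm and 37 to 69 in the nucleus. Other members also had few nuclear counts, such as PSMB3 with 17 to 32 and PSMA6 with 25 to 68.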

Other observations

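Other cytosolic complexes of many subunits had similar values in the nucleus, given as a description without a test of the difference. Of all tested genes 37.5% were lower in the nucleus than in the cytoplasm, and of protein-coding ones 45.2%. The chaperonin, which folds actin and tubulin, had 8 of 8 mRNAs lower in the nucleus than in the cytoplasm, with a median log2 fold change of -1.92. The translation initiation factor EIF3 had 11 of 13 lower with a median of -1.71, from -3.50 for EIF3I to -0.07 for EIF3C, which was not called and has a near-identical copy, EIF3CL. The COP9 signalosome, a relative of the proteasome lid, had 7 of 9 lower with a median of -1.32, and COPS5, its catalytic subunit, was higher in the nucleus with 0.81. Against the cytoplasm, the nuclear wash was lower for 4 of 8 chaperonin mRNAs, 9 of 13 EIF3 mRNAs and 7 of 9 signalosome mRNAs, with medians of -0.24, -0.60 and -0.67. There 21.4% of all tested genes and 26.6% of protein-coding ones were lower.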
